A study of Mus musculus with 6 samples.

Results

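The genes described here make cholesterol or switch on the genes that do. They are Idi1, Sqle, Hmgcs1, Fdps, Fdft1, Cyp51, Dhcr7 and Srebf2, and all probes that carry one of these symbols in the platform annotation were taken. Of these 8 genes, 6 had a probe, 1 each, among 23473 probes for 16446 named genes. Hmgcs1 and Fdps are not named in that annotation and were not analysed here. The samples were hepatic stellate cells, liver pericytes that store vitamin A, from SEPT4-KO mice and from wild-type (WT) mice, with 3 single-colour arrays each. Septins, the family to which Sept4 belongs, bind GTP and assemble into filaments. All 6 arrays came from animals in which the hepatotoxin carbon tetrachloride (CCl4) had produced cirrhosis, and no uninjured group was included. The labels give neither strain, sex nor age, do not say whether Sept4 was deleted in all cells or whether cells were pooled or cultured, and name no separate animals, so the spread behind each p-value may be technical. The set holds synthesis enzymes and 1 transcription factor, and genes of cholesterol uptake are given below from a separate list.

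Cholesterol is built from acetyl-CoA through mevalonate and a chain of isoprene units that are joined into squalene, closed into lanosterol and then trimmed step by step. Most of these enzymes are under the transcription factor encoded by Srebf2, SREBP2, a membrane protein of the endoplasmic reticulum that is released when sterols are scarce and held back by the Insig proteins when they are plentiful. It binds the sterol regulatory element, usually beside boxes for the factors NF-Y and Sp1. The liver is a major site of cholesterol synthesis, and in stellate cells free cholesterol is known to affect how readily they become myofibroblasts.

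The promoters of Idi1, Cyp51 and Srebf2 are shown because Idi1 and Cyp51, enzymes of the same pathway, moved in opposite directions and Srebf2 encodes the factor known to act on genes of this pathway. Each sequence is the 250 bases before the RefSeq start of the gene on mouse assembly GRCm38.p6, read 5′ to 3′ along the gene's own strand. Capitals mark CCAAT, the NF-Y box, or its reverse ATTGG, and ATCACC, a short form of the sterol regulatory element. Idi1 is chr13:8885356-8885605 on the plus strand, Cyp51 is chr5:4104698-4104947 on the minus strand and Srebf2 is chr15:82147019-82147268 on the plus strand.
Idi1: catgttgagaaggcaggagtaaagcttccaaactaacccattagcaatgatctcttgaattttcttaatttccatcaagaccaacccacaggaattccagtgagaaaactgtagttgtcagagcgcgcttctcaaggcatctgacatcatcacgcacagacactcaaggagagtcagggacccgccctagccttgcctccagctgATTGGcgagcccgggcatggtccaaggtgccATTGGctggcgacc
Cyp51: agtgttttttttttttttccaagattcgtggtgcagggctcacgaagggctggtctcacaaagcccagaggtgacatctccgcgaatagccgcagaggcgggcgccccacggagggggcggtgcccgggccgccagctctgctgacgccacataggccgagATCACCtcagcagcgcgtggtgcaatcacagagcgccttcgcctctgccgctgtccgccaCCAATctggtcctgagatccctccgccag
Srebf2: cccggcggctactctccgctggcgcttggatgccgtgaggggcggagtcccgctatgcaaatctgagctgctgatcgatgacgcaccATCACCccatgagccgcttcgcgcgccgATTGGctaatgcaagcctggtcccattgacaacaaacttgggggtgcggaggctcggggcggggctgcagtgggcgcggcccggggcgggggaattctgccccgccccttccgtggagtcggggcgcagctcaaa
Idi1 had 2 CCAAT boxes and no ATCACC, whereas Cyp51 and Srebf2 each had 1 of both. The longer element TCACNCCAC was in none of the 3 sequences. Sequences for Sqle and Fdft1 were not used here.

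Array-wide, the comparison gave many differences. At an adjusted p under 0.05 in limma, 42.7% of all probes passed, 26.7% as higher and 16.0% as lower in KO cells. A count of called genes has to be read against these shares. Among 5028 probes with a mean log2 signal of 7 to 10, where 4 of the 6 genes lay, 68.4% passed, 45.7% as higher and 22.6% as lower in KO. The median log2 difference of all probes was 0.12, and of all calls 62.6% were higher in KO. After quantile normalisation that median was 0.02 and 52.5% of calls were higher, and after cyclic loess 0.01 and 51.5%. The labels call the values quantile normalised, but the arrays shared only their median of 5.02 and not 1 distribution. Their upper quartile was 7.82 to 7.84 in KO and 7.70 to 7.73 in WT, and their highest value 16.6 to 16.8 in KO and 15.7 to 15.8 in WT, so array range and genotype cannot be told apart. No probe is named Sept4 in the annotation used, so the deletion could not be checked in these samples. The stellate label was checked on 12 markers, of which 11 had a mean signal of at least 4, 8 were higher in KO and 2 were lower, or 7 and 2 after either scaling. Lrat, which esterifies vitamin A for storage, and the stellate globin Cygb, both named after their values were seen, rose by 2.41 and 2.05. Acta2, smooth muscle actin and the brightest of the 12, fell by 0.56, and Lhx2 and Col1a1 rose by 0.54 and 0.45. The summed linear signal of the 12 markers was 32467 to 34729 in KO and 40104 to 45659 in WT, without overlap. Acta2, at a mean log2 signal of 14.69 in KO and 15.25 in WT, made up most of this sum. The sum therefore does not show the direction of the other markers, of which most were higher in KO. The part of the stellate markers in the changes of the cholesterol genes was not tested.

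Among the 6 genes, 3 rose, 1 fell and 2 did not pass the threshold in KO cells, and the rises and the fall were of enzymes. Idi1 and Sqle had the largest rises, of less than 2-fold, Fdft1 a smaller one, and Cyp51 fell. All 4 genes that passed had a mean log2 signal of 7 to 10, where most probes passed, and the median log2 difference of the 6 genes was 0.11 beside the 0.12 of all probes. KO and WT values did not overlap for 5 of the 6 genes, 3 higher and 2 lower in KO, against 56.2% of all probes, 34.5% higher and 21.7% lower.

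**Figure D1:**
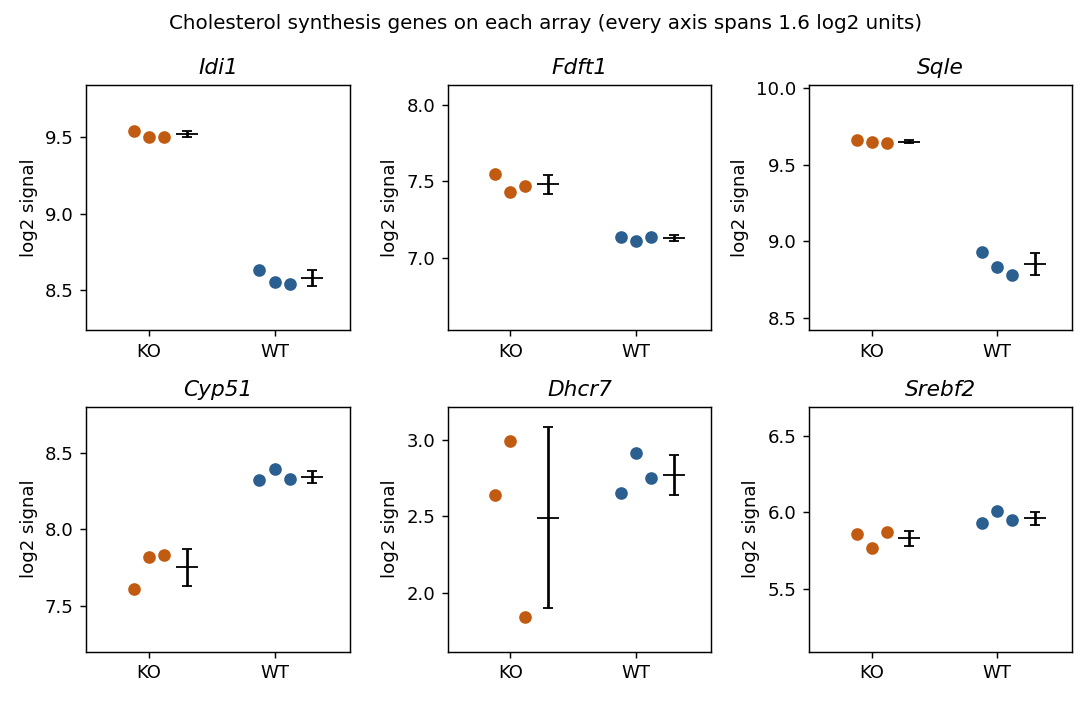
Log2 signal of the 6 genes on each of 3 KO arrays (orange) and 3 WT arrays (blue), with the mean and SD beside the points. Idi1, Sqle and Fdft1 lie higher in KO, Cyp51 and Srebf2 lie lower in KO, and Dhcr7 overlaps.

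Idi1 encodes isopentenyl-diphosphate isomerase, which makes the activated isoprene unit from which squalene and all other isoprenoids are built. Its log2 signal was 9.54, 9.50 and 9.50 on the KO arrays, against 8.63, 8.55 and 8.54 on the WT arrays. Every KO array was higher than every WT array. Idi1 averaged 9.52 ± 0.02 in KO and 8.58 ± 0.05 in WT (SD, n = 3 each). Idi1 thus rose 1.92-fold, with a log2 difference of 0.94 ± 0.05 (SE) and a limma adjusted p of 0.000489. It was larger in size than the differences of 86.5% of all probes. By exact two-sided permutation of the arrays p was 0.1, and no smaller value is possible with 3 against 3.

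Sqle encodes squalene epoxidase, the oxygen-using step that prepares squalene for ring closure and a rate-limiting point of the late pathway. It read 9.66, 9.65 and 9.64 in KO, against 8.93, 8.83 and 8.78 in WT. The KO arrays were nearly equal, and all lay above the WT arrays. The log2 difference of Sqle was 0.81 ± 0.06 (SE), or 1.75-fold (limma adjusted p 0.000677). Fdft1 encodes squalene synthase, which commits farnesyl diphosphate to sterols. Its values were 7.55, 7.43 and 7.47 in KO, against 7.14, 7.11 and 7.14 in WT, again without overlap. Fdft1 rose 1.27-fold, by 0.35 ± 0.05 (SE) on the log2 scale (limma adjusted p 0.00473). This difference was larger in size than those of 45.2% of all probes. The median size was 0.39 over all probes and 0.32 at a mean log2 signal of 7 to 10, where Fdft1 lay. After quantile normalisation the rises were 0.81 for Idi1, 0.67 for Sqle and 0.26 for Fdft1, and after cyclic loess they were 0.80, 0.66 and 0.26.

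Cyp51, the lanosterol demethylase and target of azole antifungals in fungi, went the other way. It had log2 signals of 7.61, 7.82 and 7.83 in KO, against 8.32, 8.39 and 8.33 in WT. All KO arrays were below all WT arrays, and KO replicate 1 was the lowest. Cyp51 fell by 0.59 ± 0.08 (SE) on the log2 scale, to 0.664 times its WT signal, at a limma adjusted p of 0.0034. The change of Idi1 exceeded that of Cyp51 by 1.53 log2 units. The within-array difference between them did not overlap between genotypes, with an exact two-sided permutation p of 0.1. Both genes had already moved in opposite directions without overlap, so this outcome was fixed in advance and adds no support. A shift common to all probes of an array cancels in the within-array difference. Its size describes how far the genes moved apart and not where 0 lies for each. Cyp51 differed by -0.69 after quantile normalisation and -0.71 after cyclic loess.

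Dhcr7 and Srebf2 did not pass as deposited. Dhcr7 encodes 7-dehydrocholesterol reductase, the last step to cholesterol. It was dim, at 2.64, 2.99 and 1.84 in KO, against 2.65, 2.91 and 2.75 in WT. The groups overlapped, and KO replicate 3 was lower than the other 5 arrays. The log2 difference of Dhcr7 was -0.28 with a 95% interval of -1.07 to 0.52 and an adjusted p of 0.518 in limma, and without KO replicate 3 it was 0.05. Only 16.2% of probes with a mean signal under 4 passed, so a moderate change of Dhcr7 may have been missed. Srebf2 read 5.86, 5.77 and 5.87 in KO, against 5.93, 6.01 and 5.95 in WT. Its KO values lay just below its WT values without overlap. Srebf2 differed by -0.13 ± 0.05 (SE) on the log2 scale, at a limma adjusted p of 0.107. With quantile normalisation the difference was -0.17 (adjusted p 0.0381), and with cyclic loess -0.16 (adjusted p 0.0478). Messenger RNA does not show how much SREBP2 is released from the membrane.

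**Figure D2:**
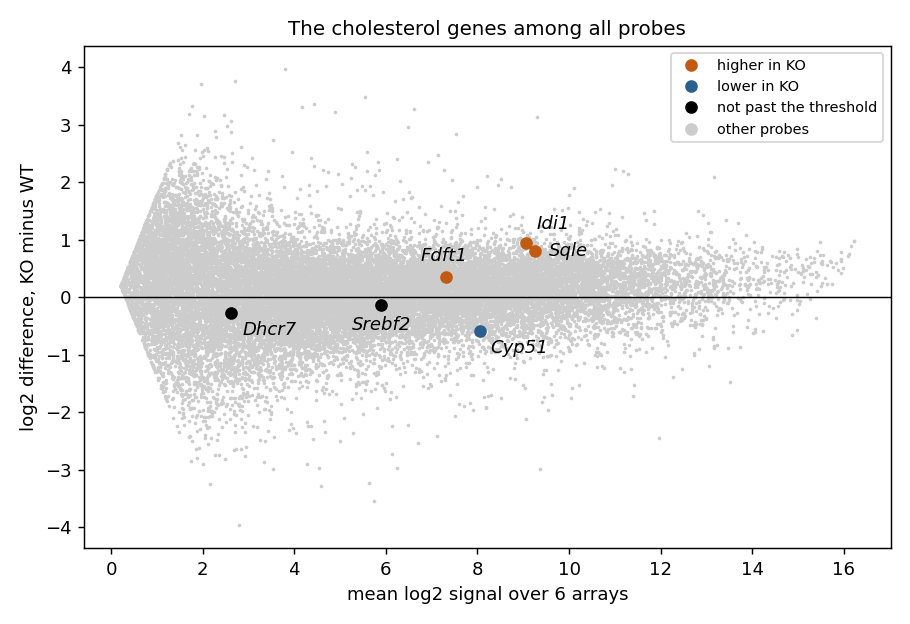
Log2 difference, KO minus WT, against mean log2 signal over 6 arrays for all 23473 probes (grey), with the 6 cholesterol genes named. All 6 lie inside the cloud. Idi1 at 0.94, Sqle at 0.81 and Cyp51 at -0.59 are larger in size than 86.5%, 81.6% and 68.3% of all probes.

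Of the 13 remaining enzymes listed for the pathway, 10 were measured, and 5 rose, 1 fell and 4 did not pass. After quantile normalisation 4 rose and 2 fell, and after cyclic loess 4 rose and 3 fell. Their median log2 difference was 0.15, which turned to -0.02 after quantile normalisation and -0.03 after cyclic loess. Mevalonate kinase (Mvk) read 5.70, 5.87 and 5.86 in KO, against 5.16, 5.31 and 5.30 in WT, a log2 rise of 0.55 ± 0.08 (SE) at a limma adjusted p of 0.00397. Msmo1, the sterol methyl oxidase listed under its older symbol Sc4mol, rose by 0.55 as well. The isomerase Ebp rose by 0.41, or 0.25 after either scaling, and the sterol reductase Tm7sf2 by 0.40. Sc5d, which forms a ring double bond just before the Dhcr7 step, rose by 0.20 (limma adjusted p 0.0279). Its call ended after either scaling, at a difference of 0.05 and an adjusted p of 0.377 each, and without any single array other than WT replicate 1, at adjusted p-values of 0.0694 to 0.0944.

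Lanosterol synthase (Lss), which closes squalene epoxide into the first sterol ring system, was the other enzyme that fell. It read 8.87, 8.95 and 8.97 in KO, against 9.49, 9.43 and 9.39 in WT. The groups did not overlap, and the log2 difference of Lss was -0.51 ± 0.06 (SE) at a limma adjusted p of 0.00189. Lss acts directly after Sqle and directly before Cyp51, so the enzymes on either side of the epoxide moved apart. The change of Sqle exceeded that of Lss by 1.32 log2 units. The exact two-sided permutation p was again 0.1, fixed in advance by opposite directions without overlap. Nsdhl and Hsd17b7, which act after Msmo1, had log2 differences of -0.05 and -0.04, and Mvd one of -0.06. Under cyclic loess Nsdhl and Hsd17b7 passed as lower, at -0.15 and -0.18, and under quantile normalisation Nsdhl alone of the 3, at -0.16. Pmvk was near the lowest values of the arrays and had a 95% interval of -1.32 to 1.52. Over all 15 enzymes measured, 8 rose, 2 fell and 5 did not pass, with a median difference of 0.20. After quantile normalisation 7 rose and 3 fell, after cyclic loess 7 rose and 4 fell, and the median was 0.05 under each. As deposited, 45.7% of all probes at a signal of 7 to 10 were higher and 22.6% lower.

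**Figure D3:**
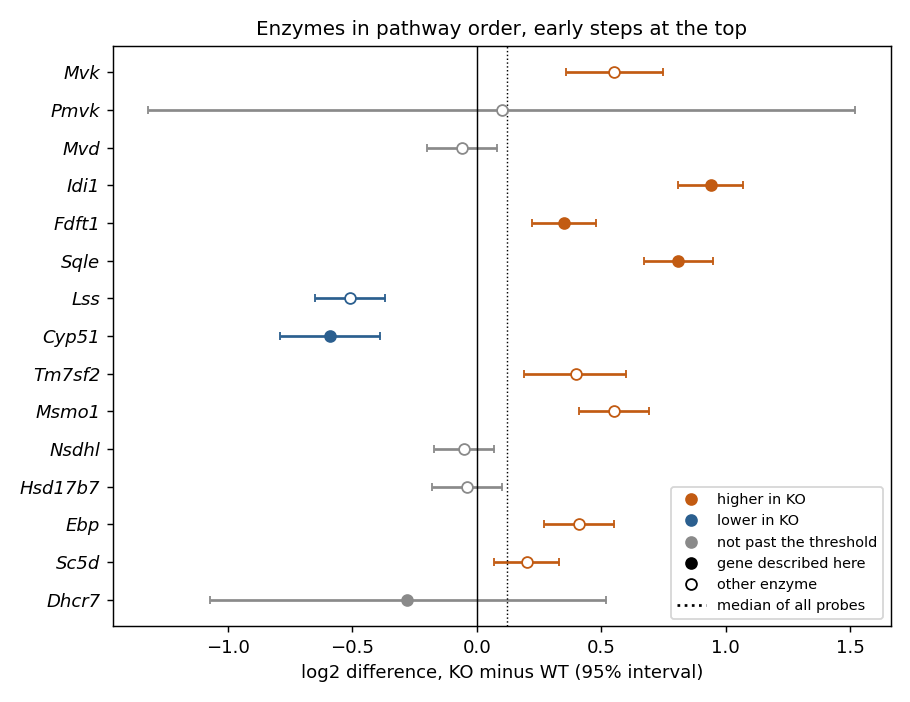
Log2 difference, KO minus WT, with its 95% interval for 15 enzymes from mevalonate kinase at the top to Dhcr7 at the bottom. Filled points are Idi1, Fdft1, Sqle, Cyp51 and Dhcr7, and the neighbours Lss and Cyp51 are the only enzymes to the left of 0 that passed.

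The short element ATCACC was compared with these directions as a description only, since it was chosen after the sequences and values were known. RefSeq promoters were found for 16 of the 21 enzymes and Srebf2, 19 promoters in all, and searched on both strands over 250 bases. ATCACC was in a promoter of 5 of these genes, and 8.48% of all 32851 promoters hold it. Of the 5, Cyp51 and Lss fell, Srebf2, Nsdhl and Pmvk did not pass, and 0 rose. The 6 risen genes with a promoter, Idi1, Mvk, Tm7sf2, Msmo1, Ebp and Sc5d, had none in this window. CCAAT was in a promoter of 15 of the 16 genes, and is in 33.8% of all promoters. The Sp1-type box GGGCGG was also in promoters of 15 genes, and is in 32.7% of all promoters. TCACNCCAC was found for 1 gene, Hmgcs1, which had no probe, and is in 1.05% of all promoters. Letters in a window are not binding sites, and their absence here says nothing of the factor.

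Genes of sterol sensing, SREBP processing and sterol-linked protein degradation were examined next. Of 8 measured, 0 rose and 2 fell in limma, with a median difference of 0.02. Of all probes, 26.7% rose and 16.0% fell, and at a signal of 7 to 10 these shares were 45.7% and 22.6%. At an unadjusted p under 0.05 there was 1 higher gene of the 8, Rnf139. After either scaling the median was -0.05, and Mbtps1, a protease that cuts SREBP and named here after its values were seen, also passed as lower, at -0.20. The 2 genes that fell as deposited encode Insig proteins, the anchors that hold SREBP back in the endoplasmic reticulum. Insig2 read 8.21, 8.31 and 8.36 in KO, against 8.78, 8.86 and 8.80 in WT. Its log2 difference was -0.53 ± 0.06 (SE), at a limma adjusted p of 0.0022. Insig1, itself a sensitive SREBP target, read 6.23, 6.34 and 6.37 in KO, against 6.66, 6.62 and 6.50 in WT. Insig1 differed by -0.28 (limma adjusted p 0.0262), and its call ended without WT replicate 1 or 2 or KO replicate 1 or 2, at adjusted p-values of 0.0657 to 0.0867. Srebf1, which mainly drives fatty acid synthesis, had a difference of 0.16, and the escort gene Scap 0.07, which turned to -0.05 after quantile normalisation and -0.07 after cyclic loess.

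Uptake and trafficking genes moved both ways. Of 17 listed, 14 were measured, and 5 rose, 4 fell and 5 did not pass, with a median difference of 0.15. Of all probes, 26.7% rose and 16.0% fell, or 45.7% and 22.6% at a signal of 7 to 10. The receptor gene Vldlr read 5.32, 5.09 and 5.22 in KO, against 6.48, 6.16 and 6.21 in WT. That is 0.474 times the WT signal, with a log2 difference of -1.08 ± 0.11 (SE) and a limma adjusted p of 0.00169. The endocytic receptor gene Lrp1 rose by 0.42. Lysosomal acid lipase (Lipa, listed as Lip1), which frees cholesterol from its esters, read 7.10, 6.84 and 6.80 in KO, against 6.0, 6.0 and 6.12 in WT, a log2 rise of 0.87 ± 0.10 (SE).

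The cytosolic sterol carriers Stard4 and Stard5 rose by 0.76 and 0.44. Npc2, which hands cholesterol to Npc1 in the lysosome, fell by 0.56 ± 0.04 (SE), at a limma adjusted p of 0.000909. Npc1 and the esterifying enzyme gene Soat1, named here after their values were seen, fell by 0.33 and 0.34, and after either scaling the difference of Npc1 was -0.52. Nceh1 (listed as Aadacl1), also named after its value was seen, rose by 0.28 (limma adjusted p 0.0148), and without WT replicate 2 the adjusted p was 0.0559. Thus the lysosomal genes did not share a direction, with Lipa higher and Npc1 and Npc2 lower in KO.

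**Figure D4:**
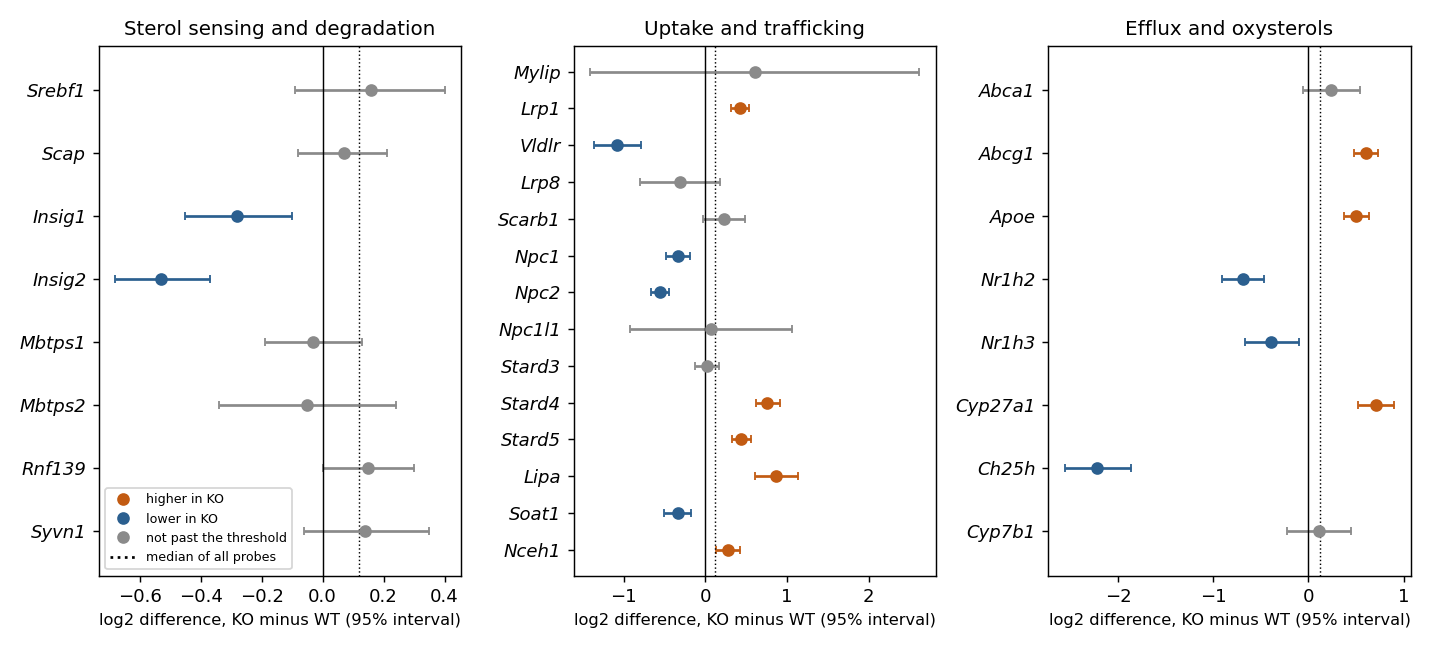
Log2 difference, KO minus WT, with its 95% interval for genes of sterol sensing, SREBP processing and protein degradation (left), uptake and trafficking (middle) and efflux and oxysterols (right), on 3 different horizontal scales. Ch25h at -2.22 lies farthest from 0, and both Insig genes lie to the left of it.

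Efflux and oxysterol genes were likewise divided, with 3 of 8 higher, 3 lower, 2 not past the threshold and a median difference of 0.18. The shares of all probes were 26.7% higher and 16.0% lower, or 45.7% and 22.6% at a signal of 7 to 10. Ch25h makes 25-hydroxycholesterol, an oxysterol that binds Insig proteins and blocks SREBP processing. It read 5.16, 5.61 and 5.37 in KO, against 7.61, 7.70 and 7.48 in WT. The KO signal was 0.215 times that of WT, with a log2 difference of -2.22 ± 0.13 (SE) and a limma adjusted p of 0.000574. Cyp27a1, the mitochondrial sterol hydroxylase, rose by 0.71, the transporter Abcg1 by 0.61 and apolipoprotein E (Apoe) by 0.50. The genes of the oxysterol receptors LXR beta (Nr1h2) and LXR alpha (Nr1h3) fell by 0.69 and 0.39. Nr1h3 had an adjusted p of 0.041 in limma, and its call ended without any single array other than KO replicate 3, at adjusted p-values of 0.0686 to 0.116.

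The non-sterol branch uses the same isoprene units for prenyl groups, dolichol and coenzyme Q. Shares of all probes were 26.7% higher and 16.0% lower, or 45.7% and 22.6% at a signal of 7 to 10. In this branch 3 of 11 genes were higher and 5 lower in KO, with a median difference of -0.14. After either scaling 6 were lower and the median was -0.22, and Pggt1b, a prenyltransferase subunit gene named after its values were seen, passed as lower at -0.22, against -0.14 as deposited. Dhdds, a subunit of the enzyme that makes the dolichol chain, read 5.18, 5.11 and 4.92 in KO, against 3.52, 2.90 and 3.15 in WT, a log2 rise of 1.88 ± 0.18 (SE). Its partner subunit gene Nus1 (listed as D10Ertd438e) fell by 0.67. Coq2, of coenzyme Q synthesis, rose by 0.76 and the farnesyltransferase subunit gene Fnta by 0.72. The subunit genes of Rab prenyltransferase, Rabggta and Rabggtb, fell by 0.67 and 0.83.

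Of 11 fatty acid genes under the related factor from Srebf1, 6 rose and 3 fell, with a median difference of 0.34. Among all probes 26.7% rose and 16.0% fell, or 45.7% and 22.6% at a signal of 7 to 10. Fads1 and Acly rose by 0.63 and 0.62, Scd2 by 0.58 (0.39 after cyclic loess), Elovl6 by 0.49, Acss2 by 0.44 and Fads2 by 0.34. Fasn, Acaca and Scd1, named here after their values were seen, fell by 0.32, 0.33 and 0.25. After quantile normalisation Acaca and Scd1 fell by 0.50 and 0.42. Either scaling gave 6 higher and 4 lower genes, with a median of 0.35. Me1, the brightest of the 11 and named after its values were seen, differed by -0.10 as deposited and did not pass. It passed as lower at -0.33 after quantile normalisation and -0.34 after cyclic loess. The fall of Fasn ended without WT replicate 2 or KO replicate 2, at adjusted p-values of 0.0568 and 0.0511, and that of Scd1 without any single array other than KO replicate 3, at 0.0823 to 0.0996.

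The 3 genes whose values over the 6 arrays lay closest to those of Idi1, after each was centred on its own mean, were Abcd3, Sumf1 and Parp14. Abcd3 encodes a peroxisomal fatty acid transporter, Sumf1 the activator of sulfatases and Parp14 an ADP-ribosyltransferase. Their root mean square distances to Idi1 were 0.0136, 0.016 and 0.0168 log2 units, with log2 differences of 0.94, 0.97 and 0.97. With 6 arrays in 2 groups, such likeness mainly reflects an equal difference between genotypes.

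Markers of other liver cells were measured beside these genes. In bulk RNA, fewer cells of a type and less RNA per cell cannot be told apart. Of 9 hepatocyte markers 1 rose and 1 fell, namely Alb, named after its value was seen, by 0.88 and Ttr, which differed by -0.42. The brighter Fgb and Apoa2 differed by 0.03 and 0.05 and did not pass. The summed linear signal of the 9 was 1362 to 1414 in KO and 1320 to 1373 in WT, and 4 of the 9 had a mean log2 signal under 4. Of 7 macrophage markers, 2 rose and 1 fell as deposited and 2 rose and 2 fell after either scaling, with a summed signal of 4995 to 5234 in KO and 4192 to 4448 in WT. Cd5l averaged 11.50 in KO and 11.01 in WT, Marco 10.45 in KO and 10.52 in WT, and Cd68 8.66 in KO and 8.49 in WT. Cd5l, the brightest of the 7, weighs most in the summed signal. The sum therefore does not show the direction of the other macrophage markers. Marco did not pass as deposited but passed as lower after either scaling, at -0.25. Emr1, which encodes the macrophage antigen F4/80, and Clec4f, a Kupffer cell lectin gene, were named after their values were seen. Emr1 averaged 3.61 in KO and 4.88 in WT, or 0.414 times the WT signal, at a limma adjusted p of 0.00823, and so moved opposite to Cd5l. Clec4f rose by 0.52. Macrophage transcripts were thus measurable in both genotypes, and their part in the changes of the cholesterol genes was not tested. Of 6 endothelial markers 0 passed in limma, and 0 at an unadjusted p under 0.05. Of 5 bile duct markers 1 passed, Spp1, which was lower. Of 5 lymphocyte markers 1 passed, Cd3g, which was higher, lay at the lowest value on 2 arrays and was named after its values were seen. The mean log2 signal was under 4 for 4 of the endothelial, 2 of the bile duct and 4 of the lymphocyte markers. Only 16.2% of all probes under 4 passed, so changes of these markers may have been missed. Summed signals were 168 to 200 in KO and 177 to 213 in WT for endothelial markers. For bile duct markers they were 500 to 527 in KO and 1090 to 1191 in WT. Spp1, at a mean log2 signal of 8.86 in KO and 10.12 in WT, made up most of the bile duct sum, and the other 4 did not pass. Those 4 had means over the 6 arrays of only 1.43 to 4.15, so the sum describes Spp1 and not bile duct markers as a group. For lymphocyte markers the sums were 146 to 174 in KO and 133 to 140 in WT. Ptprc, at a mean log2 signal of 6.97 in KO and 6.87 in WT, made up most of the lymphocyte sum and did not pass.

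**Figure D5:**
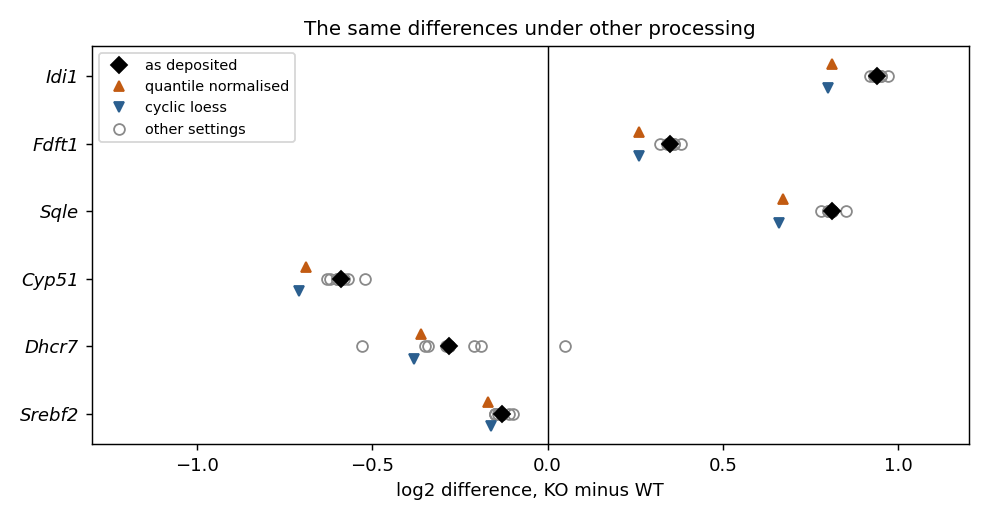
Log2 difference, KO minus WT, of the 6 cholesterol genes as deposited (diamonds), after quantile normalisation or cyclic loess (triangles) and under the other settings (circles). Idi1, Sqle and Fdft1 stay to the right of 0 and Cyp51 and Srebf2 to the left, while Dhcr7 crosses 0 without KO replicate 3.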

How the data were processed

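Single-colour (Cy5) array values were used as deposited, 1 column for each of 6 samples. The authors deposited a table of log2 signals, quantile normalised per the labels, although the 6 arrays differ in upper quartile and highest value, so the step behind the values is not settled. The log base was read from the range of the values, and background correction is not given in the sources used here. Since the text on labelling speaks of tumours and of a kit for microRNA, unlike the stated design, the groups were taken from the genotype labels. KO minus WT was tested two-sided by limma 3.58.1 (lmFit, then eBayes; R 4.3.3), with Benjamini-Hochberg adjustment over all 23473 probes and a threshold of 0.05. The number of arrays limits the precision, with 4 residual degrees of freedom and 1.11 from the prior.

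Of 126 genes in the pathway and marker lists, 112 were measured, 8 of them under an older symbol, and no listed gene had several probes. The members and lists were chosen with earlier results of these data known. Named were all members, the 6 largest differences per list among those that passed, otherwise the 3 with the smallest p, and the 3 nearest profiles to the member that changed most. For marker lists up to the 3 brightest genes were allowed, and markers named beyond these are said to be named after their values were seen. Alternatives were quantile normalisation, cyclic loess, a linear offset of 2.34, leaving out dim probes or probes at an array's lowest value, a trended and robust prior, a replicate block, the mean of a gene's probes and leaving out each array. Tested on simulated data, the fit recovered 53.6% of log2 changes of 1 and 13.8% of 0.5 over 23473 probes, with 5.4% of calls false. Only 200 probes were changed in each simulation, whereas 42.7% of probes passed in the data. These rates therefore do not describe the recovery in this comparison. Promoters came from RefSeq on GRCm38.p6. Figures were drawn with matplotlib 3.10.9.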

Additional observations from a re-analysis of the deposited data

How the results depend on the processing

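Idi1, Sqle and Fdft1 stayed higher and Cyp51 lower in KO, past the threshold, under all 14 alternatives. Their log2 differences ran from 0.80 to 0.97, 0.66 to 0.85, 0.26 to 0.38 and -0.71 to -0.52, with adjusted p-values up to 0.0189, 0.0189, 0.0333 and 0.0234 in limma. The 14 were not independent checks. With 1 probe per gene, the mean of a gene's probes left the values of these genes as they were. The filters on probes, the other prior and the replicate block left their differences unchanged and altered only errors and adjusted p-values. Srebf2 ran from -0.17 to -0.10 and passed in 2 of 14, which made the count of lower genes 2 after quantile normalisation and 2 after cyclic loess, against 1 as deposited. The median difference of the 6 genes, 0.11 as deposited, was 0.04 after quantile normalisation, 0.05 after cyclic loess and 0.35 without the dimmest 25% of probes, a filter that removed Dhcr7. With 1 array left out it ran from 0.09 to 0.20. With 1 array left out Dhcr7 ran from -0.53 to 0.05 and turned to 0.05, with an adjusted p of 0.832, without KO replicate 3, the array on which it was lowest. The replicate numbers come from the sample titles, which do not say whether same-numbered arrays were paired. Same-numbered arrays had correlations of deviations of -0.002 to 0.008. These were taken over all probes, noisy dim ones included, and so do not settle the question. With the number as a replicate block, 32.9% of all probes passed in place of 42.7%, the calls of Idi1, Sqle, Fdft1 and Cyp51 held, and the calls of 6 of 44 pathway genes ended, those of Sc5d, Insig1, Soat1, Nr1h3, Acaca and Scd1. For Pdss2, of coenzyme Q synthesis, the fall by 0.40 ended without WT replicate 2 or 3 or KO replicate 1 or 3, at adjusted p-values of 0.0701 to 0.0789. No alternative addresses cell composition or whether the arrays are of separate animals.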
